A study of Homo sapiens with 16 samples.

Results

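A set of 203 genes in LNCaP cells was strongly higher after knockdown of XBP1 than after a control siRNA. The genes were chosen by their levels in the knockdown experiment alone. For each gene and library the level was taken as log2(CPM + 0.5), where CPM is the count of the gene per 1000000 counts of that library, and the means of 4 libraries were compared. A gene was included where its mean siXBP1 level was at least 1, where that mean was at least 0.8 above the siCtrl mean, and where all 4 siXBP1 libraries lay above all 4 siCtrl libraries. Of the 58051 genes counted, 14134 had a mean siXBP1 level of at least 1 (called expressed genes from here on), and the 203 members were 1.44% of these. The members were then divided by the inhibitor experiment, into 55 genes whose MKC8866 mean exceeded the Vehicle mean by more than 0.15 on the same scale and 148 whose mean did not. Since these values chose the genes and the division, the knockdown differences and the division are described without a test, and the test of MKC8866 against Vehicle was applied to the 203 genes together.

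LNCaP is an established line of human prostate cancer cells, and all libraries came from cells at passage 20. The siCtrl cells received Allstar control siRNA and the siXBP1 cells an siRNA against XBP1, both by transfection 2 days before the end. The Vehicle cells received DMSO and the MKC8866 cells 10 µM of this inhibitor of the IRE1α RNase, both for 24 h. The cells of all 16 libraries, controls included, were then exposed to 30 nM thapsigargin for 3 h, so that no group was free of ER stress, and siCtrl and Vehicle differed in transfection, DMSO and time. Nothing in the labels states whether the 4 libraries of a group came from separate cultures, and p-values then measure only the spread between these libraries. Between 28713607 and 34509488 fragments were counted per library. XBP1 itself stood at 355 to 413 CPM in siCtrl and at 51.6 to 54.8 CPM in siXBP1, at 481 to 539.7 CPM in Vehicle and at 537 to 628 CPM with MKC8866. The 11 luminal prostate markers were summed to 4085 to 4300 CPM in siCtrl and 3470 to 3591 CPM in siXBP1, and to 4130 to 4351 CPM in Vehicle and 4554 to 4744 CPM with MKC8866, opposite directions in the 2 experiments, and the part of this sum in the results was not tested. The 4 leukocyte markers never reached 1 CPM.

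XBP1 is the transcription factor of the IRE1α arm of the unfolded protein response. Under ER stress the RNase of IRE1α cuts XBP1 mRNA, the ends are joined again in another reading frame, and the resulting protein XBP1s activates genes for chaperones, ER-associated degradation and the secretory pathway. Small interfering RNAs can, besides their intended target, lower other transcripts whose 3′ UTR pairs with the seed of a strand.

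The level after knockdown exceeded the siCtrl level by a median of 0.96 on the log2(CPM + 0.5) scale over the 203 genes, and by 0.03 over all expressed genes. The ratio of mean CPM had a median of 2.15 over the members and reached 6.97. The difference was at least 1 in 82 genes and at least 1.5 in 14. Just inside the limit of 0.8 were ENSG00000260793 and MINPP1, both at 0.80, and just outside were GPC5-AS1 at 0.798 and MRPL50 at 0.797. All 4 siXBP1 libraries lay above all 4 siCtrl libraries in 24.8% of the expressed genes and below them in 19.7%, so the absence of overlap alone was common in this experiment. Most members were weakly to moderately expressed. In siXBP1, 72 had a mean under 5 CPM, 70 had 5 to 20 CPM, 47 had 20 to 100 CPM and 14 had more.

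MEX3B (ENSG00000183496, chr15:82041778-82046141), which encodes an RNA-binding protein with KH domains, had the largest difference. MEX3B stood at 2.67, 2.96, 2.94 and 2.32 CPM in the siCtrl libraries, 21.1, 18.3, 17.6 and 18.8 CPM in siXBP1, 8.96, 8.57, 8.20 and 9.33 CPM in Vehicle and 11.7, 10.6, 10.5 and 10.3 CPM with MKC8866. The difference of its mean log2(CPM + 0.5), the scale of every difference given here, was 2.60 after knockdown and 0.28 with MKC8866, and the 4 groups did not overlap. The Vehicle libraries lay well above siCtrl, at 58.8% of the way from the siCtrl to the siXBP1 mean.

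CCDC71L stood at 13.3, 12.95, 12.1 and 12.8 CPM in the siCtrl libraries, 42.5, 41.5, 40.2 and 40.95 CPM in siXBP1, 22.5, 24.2, 21.5 and 20.3 CPM in Vehicle and 29.5, 28.5, 25.5 and 27.4 CPM with MKC8866. CCDC71L (ENSG00000253276, chr7:106656765-106660996), a gene for a coiled-coil protein, thus had no overlap between any groups either, with differences of 1.65 and 0.32. CDC42EP3 (ENSG00000163171, chr2:37641882-37738468) encodes an effector of the small GTPase Cdc42. CDC42EP3 stood at 32.97, 33.7, 32.1 and 35.8 CPM in the siCtrl libraries, 77.7, 80.4, 69.1 and 80.5 CPM in siXBP1, 58.9, 58.8, 61.1 and 62.9 CPM in Vehicle and 70.7, 70.1, 69.8 and 70.1 CPM with MKC8866. Its MKC8866 libraries lay above all Vehicle libraries and reached the lowest siXBP1 library, and its differences were 1.18 and 0.21.

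**Figure D1:**
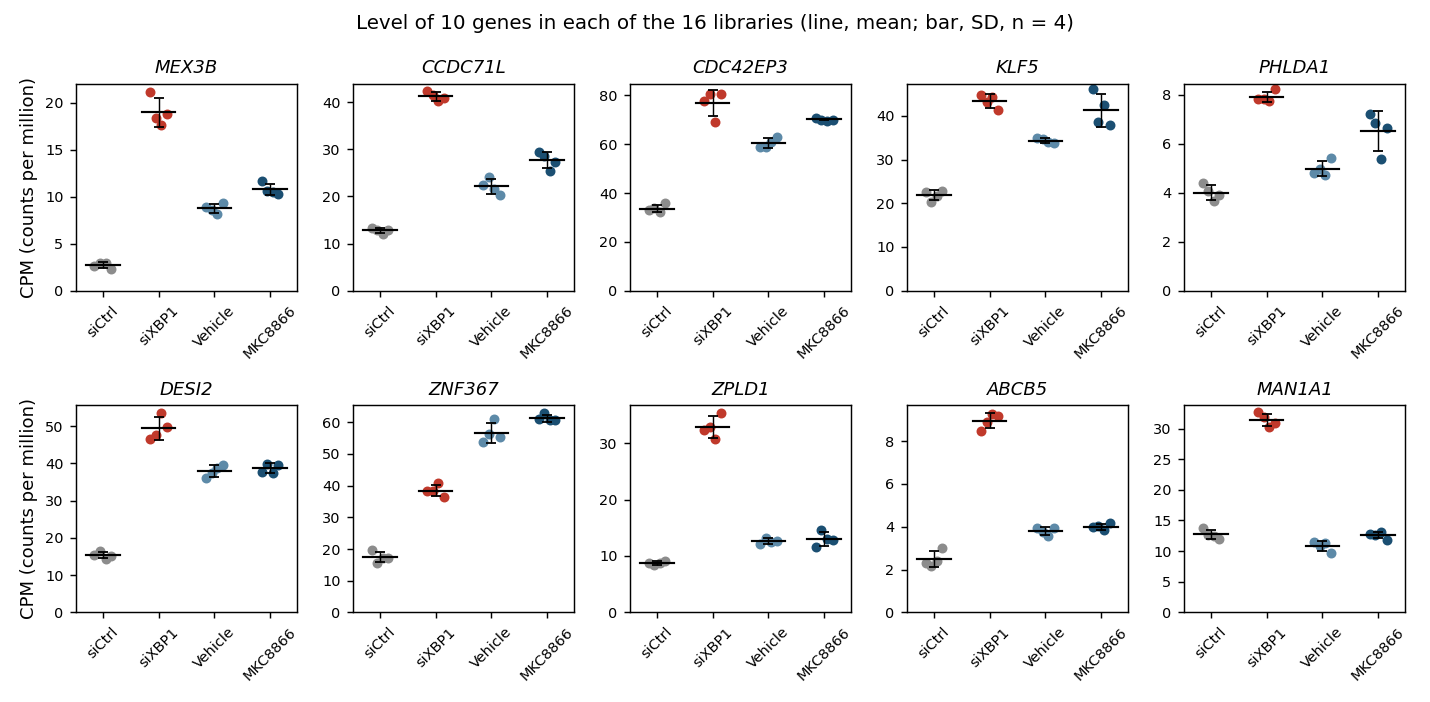
CPM (counts per 1000000) of 10 of the 203 genes in each of the 16 libraries, by group. Points are libraries, the long line is the mean and the bar is the SD (n = 4). In MEX3B and CCDC71L the 4 groups do not overlap, in ZNF367 the Vehicle libraries lie above siXBP1, and in MAN1A1 the siXBP1 libraries stand apart from the other 12.

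ABCB11 (ENSG00000073734, chr2:168922938-169031322), the bile salt export pump of hepatocytes, was barely detected outside siXBP1. ABCB11 stood at 0.404, 0.811, 0.188 and 0.754 CPM in the siCtrl libraries, 3.76, 3.95, 3.73 and 2.85 CPM in siXBP1, 0.710, 0.553, 0.784 and 0.322 CPM in Vehicle and 0.807, 0.669, 0.240 and 0.406 CPM with MKC8866. Only the siXBP1 libraries were high, and the lowest count of this gene in any library was 6. ABCB5 stood at 2.33, 2.17, 2.41 and 3.02 CPM in the siCtrl libraries, 8.46, 8.91, 9.26 and 9.17 CPM in siXBP1, 3.92, 3.73, 3.56 and 3.95 CPM in Vehicle and 3.97, 4.02, 3.84 and 4.17 CPM with MKC8866. ABCB5, a relative of the multidrug transporters, was highest in siXBP1 too, with Vehicle and MKC8866 slightly above siCtrl and a difference of 1.67 against 0.07 with MKC8866.

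ZPLD1 stood at 8.79, 8.37, 8.83 and 9.08 CPM in the siCtrl libraries, 32.3, 32.9, 30.7 and 35.3 CPM in siXBP1, 12.2, 13.2, 12.5 and 12.7 CPM in Vehicle and 11.6, 14.6, 12.98 and 12.9 CPM with MKC8866. ZPLD1, a gene for a protein with a zona pellucida domain, had a difference of 1.84 against 0.03 with MKC8866. DESI2 stood at 15.5, 16.5, 14.3 and 15.2 CPM in the siCtrl libraries, 46.7, 47.7, 53.6 and 49.8 CPM in siXBP1, 36.04, 37.5, 38.9 and 39.7 CPM in Vehicle and 37.8, 39.9, 37.3 and 39.7 CPM with MKC8866. DESI2, a member of the family of deSUMOylating isopeptidases, had a difference of 1.65, and its Vehicle and MKC8866 libraries overlapped and lay closer to siXBP1 than to siCtrl. MAN1A1 stood at 13.8, 12.6, 12.5 and 11.98 CPM in the siCtrl libraries, 32.6, 31.8, 30.2 and 30.9 CPM in siXBP1, 11.4, 10.9, 11.4 and 9.62 CPM in Vehicle and 12.8, 12.7, 13.2 and 11.9 CPM with MKC8866. MAN1A1, a Golgi mannosidase that trims N-glycans, was high in siXBP1 only, and its Vehicle libraries lay below all siCtrl libraries. PGM2L1, which makes glucose-1,6-bisphosphate, was also high in siXBP1 only, at 4.80 ± 1.05 CPM in siCtrl, 15.9 ± 0.405 in siXBP1, 4.01 ± 0.0723 in Vehicle and 4.82 ± 0.529 with MKC8866 (SD, n = 4).

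Transcription factors were found in both divisions of the members. In the gene lists from here on, genes with a mean siCtrl level of at least 1 counted as expressed too. The shares of expressed genes set beside them use the siXBP1 level alone. Of the 44 expressed genes in a list of lineage factors, 4 were members (PPARG, FOXA1, TFAP2A and GATA6). This was 9.09%, against 1.44% of expressed genes. Of the 44, 17 had no overlap with siXBP1 higher and 5 with siXBP1 lower (24.8% and 19.7% of expressed genes). KLF5, a zinc-finger factor of epithelial cells, belonged to a list of immediate early and AP-1 related genes. KLF5 stood at 22.7, 20.2, 21.6 and 22.7 CPM in the siCtrl libraries, 44.8, 43.1, 44.4 and 41.4 CPM in siXBP1, 34.9, 34.6, 34.1 and 33.9 CPM in Vehicle and 46.1, 38.7, 42.5 and 37.8 CPM with MKC8866. All 4 MKC8866 libraries of KLF5 exceeded all 4 Vehicle libraries, and these in turn exceeded siCtrl. FOXA1 stood at 351, 367, 353 and 333 CPM in the siCtrl libraries, 726, 634, 669 and 659.7 CPM in siXBP1, 547, 529.7, 552 and 535 CPM in Vehicle and 621, 562, 593 and 571 CPM with MKC8866. FOXA1, the pioneer factor that opens chromatin for the androgen receptor, was the most highly counted of these 4 lineage factors in every library, and its groups were ordered in the same way. TFAP2A (AP-2α) stood at 16.98 ± 0.757 CPM in siCtrl, 30.1 ± 1.39 in siXBP1, 17.9 ± 0.434 in Vehicle and 21.3 ± 1.31 with MKC8866 (SD, n = 4), so that Vehicle was near siCtrl. GATA6 stood at 7.40 ± 0.482 CPM in siCtrl, 13.3 ± 0.553 in siXBP1, 9.30 ± 0.508 in Vehicle and 10.98 ± 1.13 with MKC8866. PPARG, the nuclear receptor of adipocyte differentiation, stood at 14.5 ± 0.793 CPM in siCtrl, 28.5 ± 0.990 in siXBP1, 16.2 ± 0.744 in Vehicle and 16.99 ± 1.36 with MKC8866. ZNF281, a zinc-finger factor, stood at 20.5 ± 1.36 CPM in siCtrl, 52.9 ± 1.91 in siXBP1, 34.5 ± 1.55 in Vehicle and 38.6 ± 1.14 with MKC8866.

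Lists of genes that respond quickly to mitogens and stress held a larger share of members than the expressed genes (1.44%). Members were 10.7% of the expressed immediate early genes and 8.33% of the expressed genes of EGFR ligands and MAPK feedback. Of 28 expressed genes in the immediate early list, 3 were members (KLF5, EGR3 and IER5) while 14 had no overlap with siXBP1 higher and 4 with siXBP1 lower (24.8% and 19.7% of expressed genes), and in the inhibitor experiment 14 of the 28 rose and 2 fell (edgeR, Benjamini-Hochberg adjusted p under 0.05), against 1.36% and 3.11% of all genes tested. EGR3 stood at 3.26, 3.56, 3.20 and 3.02 CPM in the siCtrl libraries, 6.93, 6.25, 4.92 and 6.93 CPM in siXBP1, 3.11, 3.91, 3.23 and 3.25 CPM in Vehicle and 5.61, 4.55, 3.66 and 4.87 CPM with MKC8866. EGR3 was high in siXBP1, and its MKC8866 range overlapped the Vehicle range. IER5 stood at 6.08 ± 0.296 CPM in siCtrl, 11.2 ± 0.869 in siXBP1, 6.74 ± 0.866 in Vehicle and 7.53 ± 1.24 with MKC8866 (SD, n = 4). Of 24 genes of EGFR ligands and MAPK feedback, AREG and PHLDA1 were members, 9 were higher and 7 lower without overlap, and 4 rose and 1 fell with MKC8866. PHLDA1 stood at 4.38, 4.06, 3.67 and 3.91 CPM in the siCtrl libraries, 7.84, 7.81, 7.76 and 8.22 CPM in siXBP1, 4.80, 4.98, 4.74 and 5.41 CPM in Vehicle and 7.23, 6.83, 5.38 and 6.64 CPM with MKC8866. PHLDA1, a protein with a pleckstrin homology-like domain, was higher in 3 of the MKC8866 libraries than in any Vehicle library. AREG, the EGFR ligand amphiregulin, stood at 0.947 ± 0.167 CPM in siCtrl, 2.67 ± 0.664 in siXBP1, 1.32 ± 0.268 in Vehicle and 1.73 ± 0.260 with MKC8866. LIF, a cytokine of the interleukin-6 family, was the single member among 37 NF-κB and cytokine genes (2.7%, against 1.44% of expressed genes). Without overlap, 11 of the 37 were higher after knockdown and 9 lower (24.8% and 19.7% of expressed genes). The median difference of the 37 was −0.02, against 0.03 over expressed genes. LIF stood at 6.95, 6.84, 6.61 and 6.002 CPM in the siCtrl libraries, 12.3, 13.4, 11.4 and 13.6 CPM in siXBP1, 8.69, 7.47, 7.84 and 8.37 CPM in Vehicle and 10.5, 11.2, 9.55 and 9.62 CPM with MKC8866. The siXBP1, MKC8866 and Vehicle libraries of LIF formed 3 separate ranges above siCtrl.

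Targets of p53 were mostly higher after knockdown. Of 26 expressed p53 targets, 21 had no overlap with siXBP1 higher and 1 with siXBP1 lower (24.8% and 19.7% of expressed genes). The median difference was 0.29, against 0.03 over all expressed genes. Members were 3 of the 26 (11.5%, against 1.44% of expressed genes). SESN1, a sestrin that restrains mTORC1, stood at 38.7 ± 1.96 and 80.6 ± 2.38 CPM (SD, n = 4) in siCtrl and siXBP1. BBC3, which encodes the BH3-only protein PUMA, stood at 7.75 ± 0.531 and 14.9 ± 1.79 CPM. DDB2, a DNA damage recognition factor, stood at 29.4 ± 1.05 and 52.4 ± 2.46 CPM. DRAM1, a lysosomal membrane protein also known as a p53 target but not in that list, stood at 10.8 ± 0.802 and 32.2 ± 0.646 CPM. The Vehicle means of SESN1 and DRAM1 lay beyond the midpoint between their siCtrl and siXBP1 means. With MKC8866, 3 of the 26 rose and none fell, and with a block for the replicate number 6 rose and 1 fell. Over all tested genes these shares were 1.36% and 3.11%, and 6.0% and 7.05% with the block. None of SESN1, BBC3, DDB2 and DRAM1 passed, with log2 fold changes of −0.02, 0.12, 0.08 and 0.10 and adjusted p of 0.895, 0.567, 0.52 and 0.449.

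The matrix and adhesion list held 68 expressed genes, of which 4 were members (COL16A1, COL5A2, TNC and ITGA1). This was 5.88%, against 1.44% of expressed genes. Of the 68, 26 were higher without overlap and 9 lower (24.8% and 19.7% of expressed genes). COL16A1 stood at 3.05 ± 0.754 and 10.5 ± 0.742 CPM in siCtrl and siXBP1, COL5A2 at 12.1 ± 1.07 and 30.4 ± 1.72 CPM, tenascin C (TNC) at 1.39 ± 0.307 and 3.56 ± 0.447 CPM and the integrin subunit ITGA1 at 13.4 ± 1.64 and 25.99 ± 1.44 CPM (SD, n = 4). COL3A1, another member, lies 19150 bases from COL5A2 on chromosome 2 and stood at 2.01 ± 0.209 and 4.42 ± 0.658 CPM. COL3A1 is also on the list of 7 mesenchymal markers, whose sum was 27.3 to 35.9 CPM in siCtrl and 36.3 to 39.9 CPM in siXBP1. Most of that sum was COL1A1 (24.7 to 36.4 CPM over all libraries). COL1A2, DCN and ZEB2 stayed below 0.1 CPM, and the part of such cells in the result was not tested. In these bulk samples more cells with a transcript and more transcript per cell cannot be told apart. With MKC8866, 2 of the 68 genes rose and 1 fell (1.36% and 3.11% of all tested genes), and none of these was a member.

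Among signalling lists, FZD7 and WNT3, a receptor and a ligand of the Wnt pathway, were members out of 29 genes of that pathway. This was 6.9%, against 1.44% of expressed genes. Of the 29, 15 were higher and 5 lower without overlap (24.8% and 19.7% of expressed genes). FZD7 stood at 4.84 ± 0.625 and 10.6 ± 0.981 CPM in siCtrl and siXBP1 and WNT3 at 1.69 ± 0.260 and 3.60 ± 0.458 CPM. WASF1, a subunit of the WAVE complex that drives actin branching, stood at 17.8 ± 1.43 and 31.5 ± 1.76 CPM. AMOTL1, a scaffold of the Hippo pathway, stood at 4.98 ± 0.802 and 9.46 ± 0.421 CPM. It was the single member among 25 Hippo genes (4%, against 1.44% of expressed genes). VAV3, a guanine nucleotide exchange factor, stood at 2.44 ± 0.643 and 7.39 ± 0.519 CPM. RAB23, a small GTPase that restrains hedgehog signalling, stood at 23.2 ± 0.962 and 44.9 ± 0.592 CPM. The Vehicle means of RAB23, WASF1 and WNT3 lay beyond the midpoint between their siCtrl and siXBP1 means. FGFR2, a fibroblast growth factor receptor, stood at 0.83 ± 0.166 and 2.69 ± 0.563 CPM. The MKC8866 minus Vehicle differences of FGFR2 (0.145) and INHBE (0.147) were just under the dividing value of 0.15, and those of FAM131B-AS2 (0.1503) and FZD7 (0.155) just above it.

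Lists of the unfolded protein response differed in their number of members. None of the 27 listed XBP1s targets was a member. Of these, 24 were lower after knockdown without overlap and 1 was higher, and all 27 fell with MKC8866. None of 11 chaperones of the ATF6 type was a member. Of 24 targets of the PERK, ATF4 and CHOP arm, 15 were higher after knockdown without overlap and 2 lower (24.8% and 19.7% of expressed genes), and 3 were members (12.5%, against 1.44% of expressed genes). INHBE, an inhibin subunit, stood at 1.17 ± 0.179 and 3.30 ± 0.176 CPM. FGF21, a secreted metabolic hormone, stood at 2.45 ± 0.428 and 5.96 ± 0.202 CPM. CEBPB, a bZIP factor whose Vehicle mean lay beyond the midpoint between siCtrl and siXBP1, stood at 43.8 ± 4.53 and 77.7 ± 11.7 CPM (SD, n = 4). Their MKC8866 log2 fold changes of 0.13, −0.04 and −0.06 did not pass (adjusted p = 0.818, 0.932 and 0.801). Over this list 1 gene fell and none rose with MKC8866, and 4 rose and 5 fell with the block. Over all tested genes 1.36% rose and 3.11% fell, and with the block 6.0% and 7.05%. No gene of the interferon list (41 expressed) or the TGF-β and BMP list (35) was a member. Lists of this size can hold none at the share of 1.44% of expressed genes. Without overlap, 2 of the interferon genes were higher after knockdown and 18 lower. Of the TGF-β and BMP genes, 19 were higher and 10 lower (24.8% and 19.7% of expressed genes). In all, 34 members belonged to any of 31 lists, and 14 lists held none. The share of expressed genes in any list is not given here, so the 34 are only a description.

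Genes that do not encode proteins were 22 of the members, namely 15 long noncoding RNAs (7.39%, against 7.57% of expressed genes), 6 pseudogenes (2.96%, against 8.04%) and 1 of another class, while 178 (87.7%, against 83.2%) were protein-coding and 3 had no entry in the annotation used here. CEDORA stood at 1.002 ± 0.298 and 4.40 ± 0.950 CPM and DRAIC, a long noncoding RNA known from prostate cancer cells, at 4.48 ± 0.409 and 13.6 ± 0.326 CPM in siCtrl and siXBP1. GNG5, a G protein γ subunit, stood at 118 ± 6.10 and 302 ± 9.51 CPM and its copy GNG5B on the X chromosome at 1.52 ± 0.244 and 4.32 ± 0.493 CPM. These near-identical copies could share reads, so the value of GNG5B is uncertain. Exons of 71 members (35.0%) overlapped another gene, compared with 45.6% of expressed genes, and counting without strand cannot separate such partners. There were 19 pairs of neighbouring members within 1000000 bases, such as ZNF281 and CAMSAP2 on chromosome 1.

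The question of the inhibitor experiment was whether these genes were also higher when the IRE1α RNase was blocked. All 203 members passed the filter on low counts and were among 21045 genes tested with the quasi-likelihood test of edgeR (Benjamini-Hochberg adjusted p under 0.05). Of the members 10 rose (4.93%) and none fell, against 1.36% of all tested genes that rose and 3.11% that fell. The 21045 included genes below the level required of members (14134 were expressed genes). Shares of calls among the expressed genes alone are not given here. At an unadjusted p under 0.05, 39 members were higher and 5 lower, and DESeq2 called 11 higher and none lower. The median log2 fold change, on TMM-scaled counts, was 0.08 over the members (quartiles −0.03 and 0.16) and 0.01 over the expressed genes (−0.06 and 0.07). It was above 0 in 134 members (66.0%) and in 52.5% of expressed genes. With a block for the replicate number, 25 members rose (12.3%) and 4 fell (1.97%), against 6.0% and 7.05% of all tested genes.

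All 4 MKC8866 libraries lay above all 4 Vehicle libraries in 21 members (10.3%), and this was so in 7.34% of expressed genes. They lay below in 1 member (0.493%), the proglucagon gene GCG (6.38 ± 0.358 CPM in Vehicle and 5.66 ± 0.0598 with MKC8866, adjusted p = 0.32 in edgeR), and in 5.70% of expressed genes. The 55 members with a difference over 0.15 were 27.1% of the 203, and 9.26% of expressed genes had such a difference. The knockdown difference had the same median of 0.96 in the 55 and in the 148 other members.

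**Figure D2:**
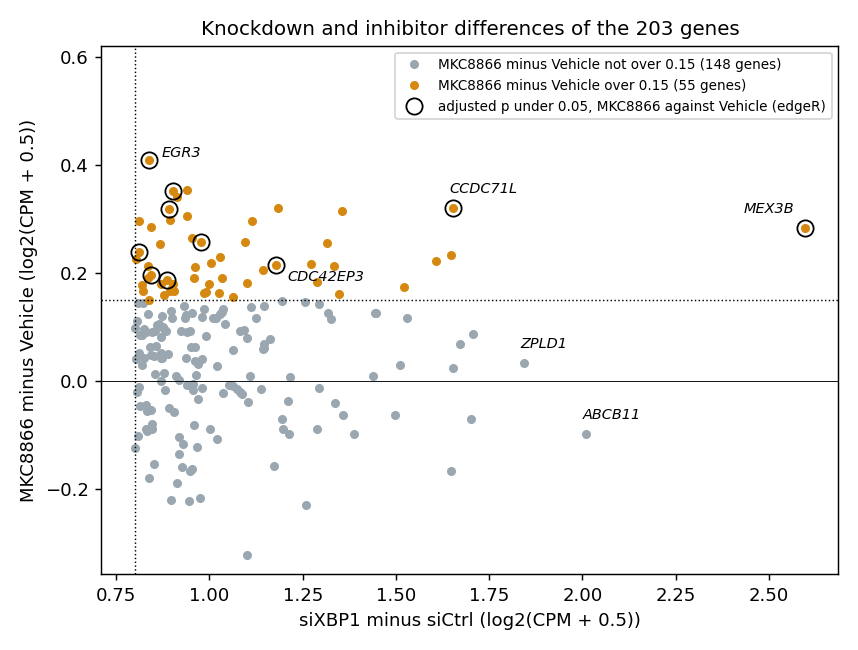
Difference of the siXBP1 and siCtrl means against the difference of the MKC8866 and Vehicle means, both of log2(CPM + 0.5), for the 203 genes. Dotted lines mark the limits of 0.8 and 0.15, orange points are the 55 genes above 0.15, and rings mark the 10 genes that rose with MKC8866 at an adjusted p under 0.05. Knockdown differences reach 2.60 (MEX3B), and those with MKC8866 are at most 0.41 (EGR3).

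The 10 that rose were CCDC71L, CDC42EP3, KLF5, LIF, TFAP2A, PHLDA1, ZBTB7A, MEX3B, EGR3 and GPR63. CCDC71L had a log2 fold change of 0.31 ± 0.0629 (SE) and an adjusted p of 0.00233. CDC42EP3 had a log2 fold change of 0.20 ± 0.0434 (SE) and an adjusted p of 0.00493, and KLF5 a log2 fold change of 0.25 ± 0.0580 (SE) and an adjusted p of 0.00934. LIF had a log2 fold change of 0.32 ± 0.0813 (SE) and an adjusted p of 0.0200. EGR3 had the largest change, a log2 fold change of 0.46 ± 0.125 (SE) and an adjusted p of 0.0337. For TFAP2A, PHLDA1, MEX3B and GPR63 the log2 fold changes were 0.23, 0.37, 0.28 and 0.17 (adjusted p = 0.0259, 0.0314, 0.0333 and 0.0487). GPR63, an orphan G protein-coupled receptor, stood at 28.4 ± 0.995 CPM in siCtrl, 52.9 ± 1.63 in siXBP1, 41.4 ± 2.38 in Vehicle and 47.1 ± 1.04 with MKC8866. ZBTB7A, a transcriptional repressor named here after its values were seen, stood at 32.6 ± 2.71 CPM in siCtrl, 58.97 ± 4.31 in siXBP1, 34.5 ± 0.477 in Vehicle and 39.6 ± 1.70 with MKC8866 (log2 fold change 0.19, adjusted p = 0.0326). The MKC8866 libraries lay above all Vehicle libraries in 8 of the 10, the exceptions being PHLDA1 and EGR3. These p-values are adjusted ones from edgeR.

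Single libraries decided several of these calls. CCDC71L and CDC42EP3 stayed called whichever of the 8 libraries was left out, with adjusted p of at most 0.0203 and 0.0247. KLF5 lost its call only without MKC8866 library 1 (adjusted p = 0.0684). The other 7 lost theirs without at least 4 of the libraries. The number of members that rose was 3 without MKC8866 library 1, 5 without Vehicle library 1 or 2, 3 without Vehicle library 3 and 6 without Vehicle library 4. With the replicate block all 10 were called, and the others that rose included FOXA1 (adjusted p = 0.000618), CAMSAP2 (0.00145), ZNF281 (0.0109), MAN1A1 (0.0209) and GATA6 (0.0258). GNG5 and SMIM15 were among the 4 that fell (0.0388 and 0.0299).

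**Figure D3:**
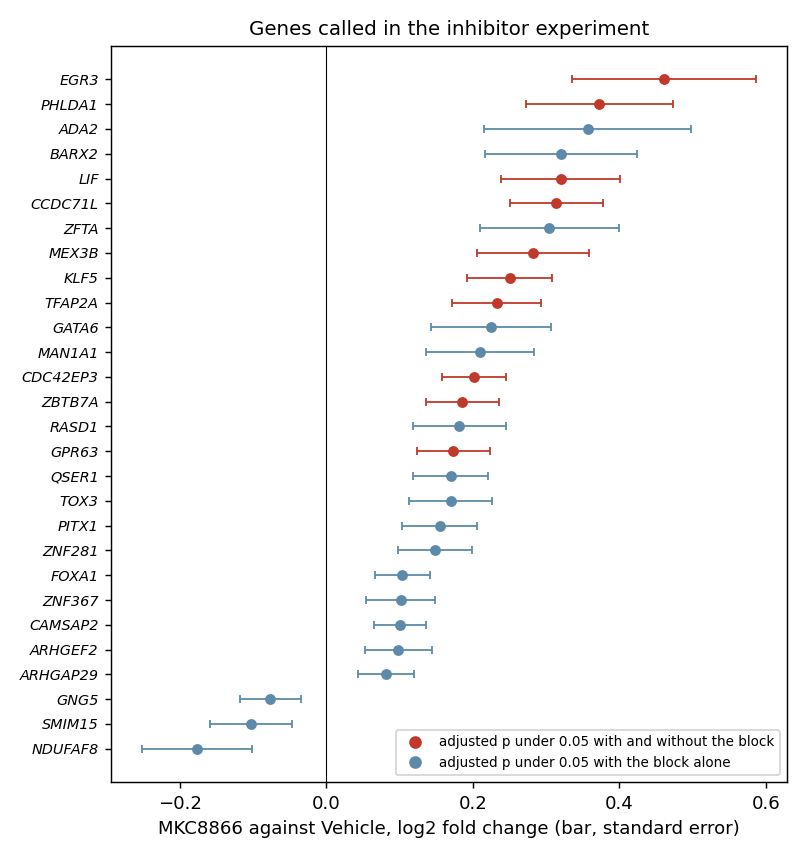
Log2 fold change of MKC8866 against Vehicle with its standard error, from edgeR without the block, for 28 of the 29 members called with the replicate block (1 Y-linked gene is left out). The 10 genes in red, from EGR3 at 0.46 to GPR63 at 0.17, had an adjusted p under 0.05 without the block as well.

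The members with the largest MKC8866 differences were not always called. ACHE (acetylcholinesterase) stood at 1.47 ± 0.194 CPM in Vehicle and 2.03 ± 0.329 with MKC8866, a log2 fold change of 0.43 with an adjusted p of 0.168. DACT1, a modulator of Wnt signalling, stood at 1.39 ± 0.208 and 1.88 ± 0.0911 CPM (log2 fold change 0.42, adjusted p = 0.177). At the other end FOXD1, a forkhead factor, stood at 2.28 ± 0.288 and 1.73 ± 0.294 CPM (log2 fold change −0.41, adjusted p = 0.171). THSD4, a gene for a matrix protein with thrombospondin repeats, stood at 6.37 ± 0.446 CPM in siCtrl, 16.3 ± 1.52 in siXBP1, 6.72 ± 1.27 in Vehicle and 7.59 ± 0.406 with MKC8866. DPY19L1, a C-mannosyltransferase, stood at 6.53 ± 0.722 CPM in siCtrl, 19.3 ± 0.558 in siXBP1, 8.66 ± 0.825 in Vehicle and 8.24 ± 0.400 with MKC8866. FCRLA had a log2 fold change of 0.40 (adjusted p = 0.523) at a lowest count of 5 in any library, and neither THSD4 nor DPY19L1 passed. These p-values are from edgeR, over 4 libraries in each group.

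The untransfected Vehicle cells placed the members in a further order, seen only after the values were examined. The level in Vehicle exceeded that in siCtrl by a median of 0.33 over the members, against 0.03 over the expressed genes. Put on a scale where the siCtrl mean is 0% and the siXBP1 mean 100%, the Vehicle mean had a median of 32.8%. It was below 0% in 17 members, between 0% and 25% in 58, between 25% and 50% in 70, between 50% and 75% in 45, between 75% and 100% in 8 and above 100% in 5. The 4 siXBP1 libraries lay above all 12 others in 170 members (83.7%), as in 11.6% of expressed genes. The 4 siCtrl libraries lay below all 12 others in 96 members (47.3%), as in 6.18% of expressed genes. Both held in 74 members. The rule itself uses siCtrl and siXBP1, so these counts are a description. With Vehicle in place of siCtrl in the rule, 67 of the 203 genes were included. Effects of transfection, of the control siRNA, of DMSO and of the time in culture cannot be told apart between siCtrl and Vehicle.

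In some members siCtrl was the low group and siXBP1 was no higher than untransfected cells. ZNF367 stood at 19.6, 15.7, 17.2 and 17.1 CPM in the siCtrl libraries, 38.3, 38.3, 40.8 and 36.4 CPM in siXBP1, 53.7, 56.3, 60.9 and 55.4 CPM in Vehicle and 60.9, 62.96, 60.6 and 60.6 CPM with MKC8866. The Vehicle and MKC8866 libraries of ZNF367, a zinc-finger gene, all lay above siXBP1, which put the Vehicle mean at 149%. SMIM15, a small membrane protein gene, stood at 22.8 ± 1.09 CPM in siCtrl, 56.5 ± 3.64 in siXBP1, 70.9 ± 4.60 in Vehicle and 66.7 ± 5.62 with MKC8866 (SD, n = 4). VPS4B, the ATPase that takes apart ESCRT-III, stood at 31.6 ± 1.76 CPM in siCtrl, 56.6 ± 2.55 in siXBP1, 60.8 ± 3.46 in Vehicle and 58.4 ± 2.45 with MKC8866. TDRD7, a tudor domain gene, stood at 6.01 ± 0.824 CPM in siCtrl, 13.8 ± 0.703 in siXBP1, 14.8 ± 0.691 in Vehicle and 15.4 ± 0.224 with MKC8866. FBN1, which encodes fibrillin-1, stood at 1.55 ± 0.145 CPM in siCtrl, 3.11 ± 0.515 in siXBP1, 3.67 ± 0.651 in Vehicle and 4.07 ± 0.182 with MKC8866. CSGALNACT2, an enzyme of chondroitin sulfate synthesis, stood at 20.4 ± 0.768 CPM in siCtrl, 41.2 ± 0.750 in siXBP1, 41.2 ± 1.70 in Vehicle and 38.8 ± 2.09 with MKC8866. Opposite to these were NWD2 and PGM2L1 besides MAN1A1, where Vehicle was at or below siCtrl. NWD2 stood at 2.38 ± 0.436 CPM in siCtrl, 6.80 ± 0.128 in siXBP1, 1.89 ± 0.194 in Vehicle and 2.48 ± 0.367 with MKC8866. CAMSAP2, which caps microtubule minus ends, lay between, at 155 ± 3.90 CPM in siCtrl, 389 ± 14.2 in siXBP1, 285 ± 3.57 in Vehicle and 308 ± 4.91 with MKC8866. SMIM15, VPS4B, TDRD7, FBN1, CSGALNACT2 and CAMSAP2 were named after their values were seen.

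The 3′ UTRs of members whose Vehicle mean lay above the midpoint shared a heptamer, TTACAAA in the sense of the transcript with U written as T. Of 15848 heptamers present in at least 100 expressed genes, this one had the largest excess over expressed genes (48.7 percentage points). The overlapping ATTACAA was next (41.4 points). Other heptamers made mostly of A and T were also in excess, such as TACATTT (30.6 points) and AATATTA (29.7 points). The A and T content of these 3′ UTRs was not compared with that of other genes. Several groupings of the members were searched before this one was used, so no test is given. TTACAAA was in 33 of the 47 such members with an annotated 3′ UTR (70.2%), in 39 of the 130 other members (30.0%) and in 2446 of 11535 other expressed genes (21.2%). ATTACAAA, which joins both heptamers, was in 44.7%, 12.3% and 6.16%. The reverse complement TTTGTAA was in 42.6%, 43.8% and 32.6%. Median 3′ UTR lengths were 1813, 1917 and 1363 bases. With the longest 3′ UTR of each gene in place of that of the canonical transcript, the shares were 70.2%, 29.2% and 22.4%.

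A selection of sites is shown, with 10 bases on either side. They come from members described above with a Vehicle mean beyond the midpoint, and 1 from CCDC71L, whose Vehicle mean lay at 46.3%. Each lies in the annotated 3′ UTR of its gene. The heptamer is in capitals, positions are on GRCh38 and sequences run 5′ to 3′ along the transcript (GENCODE annotation).
ZNF367, chr9:96386801-96386827, minus strand: agtttaaacaTTACAAAgtaggcttct
FBN1, chr15:48409612-48409638, minus strand: gctcatctaaTTACAAAgggataatcc
SMIM15, chr5:61159084-61159110, minus strand: aattcgccgaTTACAAAgacaccattt
VPS4B, chr18:63390523-63390549, minus strand: tattaaaaaaTTACAAAtgatagaatc
DESI2, chr1:244706075-244706101, plus strand: gtatcgctgtTTACAAAtcttgcatgg
CDC42EP3, chr2:37645686-37645712, minus strand: aataatattcTTACAAAgtattttttt
FOXA1, chr14:37590117-37590143, minus strand: atggttaaaaTTACAAAttaaattgtt
CAMSAP2, chr1:200858382-200858408, plus strand: atggttaagaTTACAAAttatgtgttt
KLF5, chr13:73076703-73076729, plus strand: ttaaagatagTTACAAAatacaaaagt
MEX3B, chr15:82042181-82042207, minus strand: ttctatattaTTACAAAaacggaaatg
MEX3B, chr15:82042099-82042125, minus strand: tcagtgcaagTTACAAAaattctgttg
ZNF281, chr1:200405303-200405329, minus strand: ttaaaaatggTTACAAAgtattagtta
CCDC71L, chr7:106659532-106659558, minus strand: ggctcagtgaTTACAAAcaaagacatg
ZNF367, SMIM15, DESI2 and MEX3B carried 2 sites each, FBN1 and CCDC71L 3 and ITGA1 6, and not all are shown. The CCDC71L site at chr7:106655585-106655611 lies outside the span given above for that gene. That span is from the annotation used for counting, which differs from that of the 3′ UTRs. CSGALNACT2, RAB23, GPR63, DRAM1, GCG, SESN1 and WASF1 also had a Vehicle mean beyond the midpoint and the heptamer. TDRD7, GNG5, WNT3, CEBPB and MINPP1 had a Vehicle mean beyond the midpoint and no heptamer. PGM2L1 and NWD2, where Vehicle was at or below siCtrl, carried the heptamer. ZPLD1, THSD4, AMOTL1 and ITGA1 were among the other members below the midpoint that carried it. None of 2370 mature miRNAs in RefSeq (human) had bases 2 to 8 complementary to TTACAAA. Pairing of these bases with ATTACAA, or of other bases with TTACAAA, was not searched, so other seed matches to these letters were not tested. The sequences of the 2 siRNAs were not used here, and a match of the heptamer with either was not tested.

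**Figure D4:**
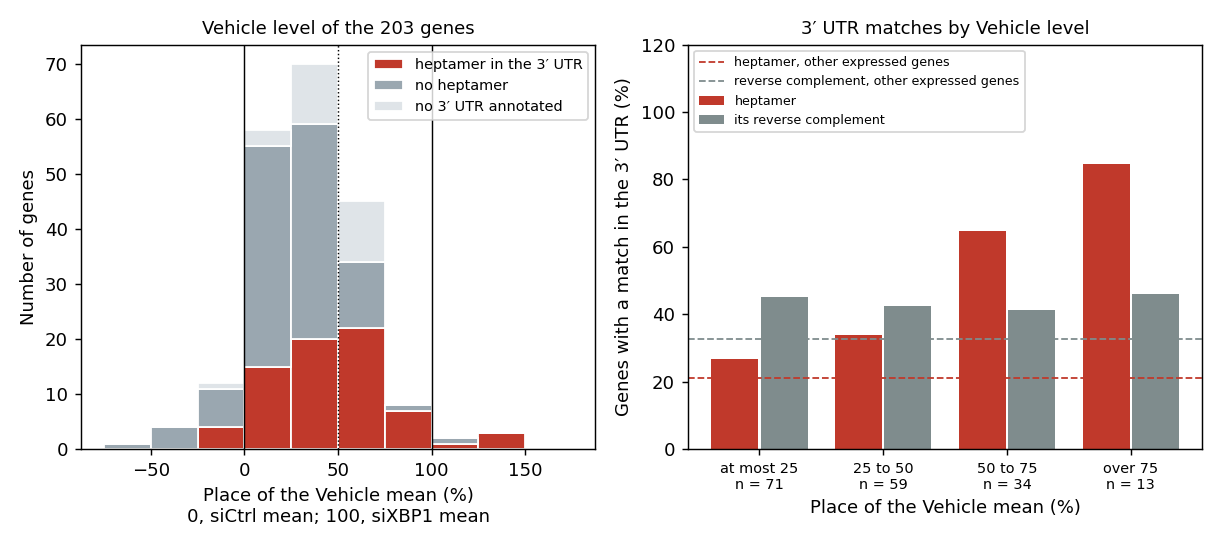
Left, number of the 203 genes by the place of the Vehicle mean between the siCtrl mean (0%) and the siXBP1 mean (100%), coloured by whether the 3′ UTR holds the heptamer. Right, share of genes with the heptamer or its reverse complement in the 3′ UTR, in 4 ranges of that place, with dashed lines for other expressed genes. The heptamer share is 26.8% up to 25% and 84.6% over 75%, while the reverse complement stays between 41.2% and 46.2%. The heptamer was picked for its excess in members above the midpoint, so its higher share there was fixed by that choice.

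The share with the heptamer was 26.8% of the 71 members with a Vehicle mean up to 25% of the way. It was 33.9% of 59 members between 25% and 50%, 64.7% of 34 between 50% and 75% and 84.6% of the 13 beyond. TTACAAA was picked for its excess in members above the midpoint, so higher shares there were fixed by that choice and are only a description. Over the same ranges the reverse complement was in 45.1%, 42.4%, 41.2% and 46.2%. Members with the heptamer had a median Vehicle minus siCtrl difference of 0.44 and those without it 0.27, partly fixed by that choice. With MKC8866 minus Vehicle both medians were 0.09, and the heptamer was in 42.3% of members over the dividing value of 0.15 and in 40.0% of the others, among those with a 3′ UTR. It was in 7 of the 10 members that rose with MKC8866 and in 12 of the 25 that rose with the block.

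The same letters went with a lower siCtrl level among the other expressed genes. Vehicle exceeded siCtrl by a median of 0.04 in the 2446 genes with TTACAAA and by 0.01 in the 9089 without it, and by 0.10 in the 711 with ATTACAAA. All 4 siCtrl libraries lay below the 12 others in 13.1% of the genes with TTACAAA, 4.22% of those without it and 22.1% of those with ATTACAAA. Genes with long 3′ UTRs hold more heptamers of any kind, so genes with a 3′ UTR below and above the median length were compared separately. Among the shorter 3′ UTRs the medians were 0.09 with TTACAAA and 0.04 without, and among the longer ones 0.03 and −0.03. The siXBP1 minus Vehicle medians were close to 0 in all of these groups of other genes, between −0.01 and 0.03. For MKC8866 minus Vehicle, the medians over these other genes were 0.036 with and 0.017 without the heptamer. They were 0.013 and 0.003 among shorter 3′ UTRs and 0.04 and 0.04 among longer ones. Genes are not independent replicates, and these are descriptions of the same 16 libraries.

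**Figure D5:**
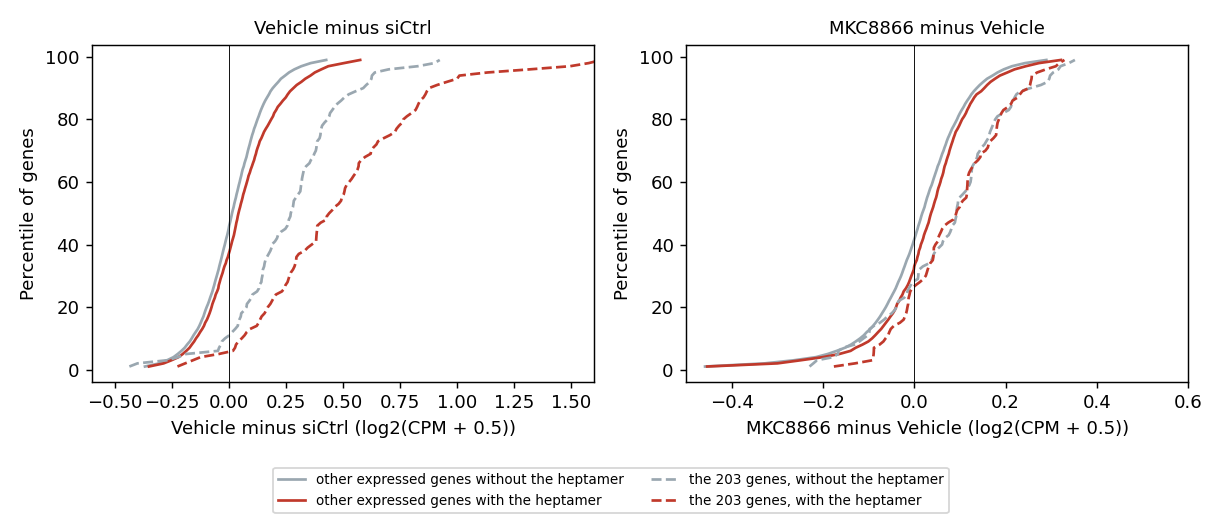
Percentiles of genes (vertical axis, 1 to 99) by the Vehicle minus siCtrl difference (left) and the MKC8866 minus Vehicle difference (right) of log2(CPM + 0.5), for the 203 genes (dashed) and the other expressed genes (solid), with the heptamer (red) or without it (grey). The dashed red line on the left runs past the end of the axis. On the left the medians with the heptamer lie to the right of those without it in both sets, with values of 0.44 and 0.27 and of 0.04 and 0.01. In the 203 genes this was partly fixed by how the heptamer was picked. On the right the dashed lines have the same median of 0.09.

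Promoters were compared over 250 bases before to 50 bases after the start of each gene (RefSeq, 146 members and 10189 expressed genes matched), on both strands. No member held the ER stress element (CCAAT and CCACG, 9 bases apart), which was in 0.147% of expressed genes, or the XBP1 and ATF6 site TGACGTGG, which was in 0.952%. CCACG alone was in 40.4% of members, 50.3% of expressed genes and 37.9% of all 27305 promoters. The AP-1 site (TGACTCA or its complement) was in 10 members (6.85%), 2.68% of expressed genes and 4.92% of all promoters. TATAAA was in 17 members (11.6%), among them KLF5, TFAP2A, AREG and ZPLD1, in 5.33% of expressed genes and in 11.95% of all promoters. The GC box GGGCGG was in 57.5%, 70.6% and 44.6%. The E-box CACGTG was in 5.48%, 10.2% and 7.43%, the cAMP element TGACGTCA in 2.05%, 3.44% and 1.98%, and CCAAT in 36.3%, 37.5% and 35.7%. A match of letters is a description of the sequence and does not show a factor at the site.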

How the data were processed

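Poly(A) RNA of LNCaP cells was sequenced in 16 libraries, in 4 groups of 4 taken from the labels. Per the file headers, the authors deposited raw counts of fragments per gene from featureCounts (1.5.0-p3), made without a strand option and not normalized, and the notes of the submitters name STAR and the hg38 genome. Antisense and overlapping genes are therefore not separated. Per library 28713607 to 34509488 fragments were counted, and all pairs of replicates differed by more than counting noise.

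CPM were computed on column totals, and members were found on log2(CPM + 0.5). MKC8866 and Vehicle were compared with edgeR (4.0.16, R 4.3.3; TMM scaling, quasi-likelihood test, Benjamini-Hochberg adjustment over all 21045 genes) after genes that did not exceed 5 counts in any library of 1 of the groups were left out. DESeq2 (1.42.0) was an alternative, beside other scalings, filters, limits of the rule and leaving out each library. Same-numbered Vehicle and MKC8866 libraries deviated together (r = 0.240, 0.435, 0.135 and 0.264 over 13537 genes), so the fit with the replicate number as a block is given where it changed a result. The pairing was weak for number 3. Vehicle library 1 with MKC8866 library 3 (r = 0.181) and Vehicle library 3 with MKC8866 library 1 (r = 0.188) exceeded its value of 0.135. All other pairs of unlike number had a negative r. On simulated counts of the MKC8866 comparison, with 50 genes changed at each size, the test recovered 38 at 1.25-fold and all 50 at 1.5-fold, with 8 false calls among 20238 unchanged genes. Recovery at the counts and the spread of the members themselves was not tested, and 72 members had a mean under 5 CPM in siXBP1. Among the members, ACHE had a log2 fold change of 0.43 and was not called (edgeR, adjusted p = 0.168). 3′ UTRs are those of GENCODE 44, and promoters and miRNAs those of RefSeq.

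Members and gene lists were chosen with earlier results of these data known, and 1 of the lists is not reported here. Genes were named as those with the largest knockdown difference in each division, the largest and smallest MKC8866 changes, those called with MKC8866 and those in a list. ZBTB7A, GCG, FBN1, SMIM15, VPS4B, TDRD7, CSGALNACT2, GNG5, CAMSAP2 and COL3A1 were chosen after their values were seen, as were the heptamer search and the grouping by the Vehicle level.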

Additional observations from a re-analysis of the deposited data

Results flagged for a closer look

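In 10 of the 240 groups of 4 libraries checked over 60 genes, 1 library lay far from the other 3, with a gap to its neighbour above the 95% critical share of the range of the group (Dixon's test). Chance gives about 1 such group in 20. The shares of the range were 0.872 for ZNF367, 0.834 for BBC3 and 0.877 for IER5 with MKC8866, and 0.895 for VAV3 in Vehicle. In siXBP1 they were 0.832 for PHLDA1, 0.903 for SMIM15, 0.887 for GNG5 and 0.834 for GCG. In siCtrl they were 0.863 for CEDORA and 0.856 for RAB23. GCG moved in opposite directions, with every siXBP1 library above every siCtrl library and every MKC8866 library below every Vehicle library (difference −0.16 on the log2(CPM + 0.5) scale). This difference between the experiments was not tested.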

How the results depend on the processing

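A knockdown difference of at least 0.6 gave 464 genes and one of at least 1 gave 82, and with Vehicle in place of siCtrl, an alternative chosen after seeing the data, there were 99, of which 67 were among the 203. A dividing value of 0 put 142 members in the higher division and one of 0.3 put 9. TMM scaling gave 177 members, a pseudocount of 1 gave 146 and no minimum level gave 228. With the replicate block, used because same-numbered libraries deviated together, though weakly for number 3, 25 members were higher and 4 lower. At an adjusted p under 0.01 without the block there were 3 higher (edgeR). Other scalings, filters, DESeq2 and a fit of all 16 libraries gave 9 to 11 higher. Leaving out 1 library at a time gave 3 to 8 higher and 0 lower, a median MKC8866 difference of 0.055 to 0.086, 200 to 217 members and 50 to 64 in the higher division. No result was reversed. Of the single-gene values, 215 stayed on their side of the threshold and 10 no longer passed. These values covered only CCDC71L, CDC42EP3, EGR3 and MEX3B of the called members, and all 10 losses were in EGR3 and MEX3B. The other genes in this tally had not passed in the main fit. ZBTB7A and GPR63, called but not in the tally, lost their calls in 7 of the 8 fits with 1 library left out. Genes with few counts limit the precision, and 72 members had a mean under 5 CPM in siXBP1.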
